A study of Homo sapiens with 4 samples.

Results

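The stratified epithelial keratins are the intermediate filament genes of layered epithelia, and 9 of them were followed here: the type II genes KRT4, KRT5, KRT6A and KRT6B and the type I genes KRT13, KRT14, KRT15, KRT16 and KRT17. They were found by symbol among the 62077 rows of a gene expression table and stand on 9 single rows on chromosomes 12 and 17, out of 56 keratin genes in the table. The group was chosen by measured values, because keratins were among the largest losses after knockdown of TET1 in these same libraries. The size of that loss is therefore a description of how the genes were picked and supports nothing.

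RNA-Seq was done in FaDu cells, an established line of squamous carcinoma cells from the human hypopharynx. The 4 libraries were a normoxic scrambled control (N-scr), a normoxic TET1 knockdown (N-si), a hypoxic scrambled control (H-scr) and a hypoxic TET1 knockdown (H-si). Hypoxia was 1% oxygen, 5% CO2 and 94% nitrogen for 19 h. TET1 is a dioxygenase that oxidises 5-methylcytosine in DNA, and the study asked how its loss alters the response to hypoxia. Control and knockdown cells of all 4 groups were infected with a lentiviral vector for short hairpin RNAs (pLKO.1-puro), and the study lists 1 hairpin against TET1 and also calls its infected cells clones. Each group had 1 library, so no difference has a replicate check, no p-value is given, and every comparison is one between single libraries.

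Keratins form filaments only as pairs of a type I and a type II chain. In stratified epithelia KRT5 and KRT14 are the classical pair of the basal, dividing layer. KRT4 and KRT13 are the pair of the suprabasal layers of moist mucosa such as mouth, pharynx and oesophagus. KRT6A, KRT6B, KRT16 and KRT17 are induced in wounded or rapidly dividing epithelium, and KRT15 is a type I keratin of basal cells. Simple epithelia use KRT8 and KRT18 instead, and many carcinomas hold both kinds.

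Several of these genes are near copies of each other, which bears on whose reads are whose. KRT6A, KRT6B and KRT6C have coding sequences of 1692 bases each, and KRT6A is identical to KRT6B at 97.5% of positions and to KRT6C at 97.9%. The window below is the 90-base stretch of 1 coding exon in which KRT6A and KRT6B differ most, at 10 positions, and it is shown because reads over such places are what separates the genes. It covers coding bases 656 to 745 and was read from the GENCODE v44lift37 transcripts on GRCh37, minus strand. Capitals mark the positions at which the 3 genes are not all alike.
KRT6A, chr12:52885316-52885405: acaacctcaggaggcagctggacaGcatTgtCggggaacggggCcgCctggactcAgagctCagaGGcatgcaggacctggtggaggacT
KRT6B, chr12:52844200-52844289: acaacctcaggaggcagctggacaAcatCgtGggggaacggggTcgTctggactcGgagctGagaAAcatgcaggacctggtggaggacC
KRT6C, chr12:52865860-52865949: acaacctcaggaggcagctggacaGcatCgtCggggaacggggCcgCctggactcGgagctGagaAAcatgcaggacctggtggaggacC
KRT14 and KRT16 are less alike, with 85.5% identity of their coding sequences, and KRT17 is identical to KRT14 at 78.7% of aligned positions and to KRT16 at 72.8%.

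Of all the 100-base words in its transcript, the length of a read, KRT6A shared 18.2% with transcripts of other genes and KRT6B 24.4%. The share was 7.1% for KRT16, 6.1% for KRT14, 1.6% for KRT5 and 0.4% for KRT17, and it was 0.0% for KRT4 and KRT15. KRT13 shared 14.6%, all with a noncoding gene on the opposite strand (AC019349.5), and whether the reads kept strand is not given in the sources used here. The values of KRT6A, KRT6B and KRT13 are uncertain to that extent, since the authors' counting could have split or moved such reads.

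The promoters of KRT5 and KRT4 are shown because only these 2 of the 9 genes were in the set of promoter sequences available here. They are the 250 bases before the RefSeq start site on GRCh38.p14, minus strand. Capitals mark the match to the AP-2 motif GCCNNNGGC, which begins at position -105 from the start of KRT4.
KRT4, chr12:52814117-52814366: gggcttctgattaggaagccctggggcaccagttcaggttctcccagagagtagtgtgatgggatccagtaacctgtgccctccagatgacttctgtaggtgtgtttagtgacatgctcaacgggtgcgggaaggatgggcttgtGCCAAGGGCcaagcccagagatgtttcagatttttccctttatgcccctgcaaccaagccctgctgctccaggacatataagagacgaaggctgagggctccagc
KRT5, chr12:52520395-52520644: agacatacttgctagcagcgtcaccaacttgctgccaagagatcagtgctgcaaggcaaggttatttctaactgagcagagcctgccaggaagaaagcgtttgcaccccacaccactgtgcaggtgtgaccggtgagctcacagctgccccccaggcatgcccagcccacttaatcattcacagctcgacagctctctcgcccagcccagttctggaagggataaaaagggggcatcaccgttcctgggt
Of all 35116 promoters searched in the same way on both strands, 19.8% held GCCNNNGGC. No match was found in either window to TATAAA (10.7% of all promoters), TGANTCA for AP-1 (6.57%), GGGCGG for Sp1 (42.6%) or ACGTG, the core of hypoxia response elements (18.5%). A match describes letters and not a bound site. No methylation or binding data were used with these windows.

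The level in FPKM (fragments scaled by exon length and by library depth) is per length and can be compared between genes. Approximate reads behind each level were recovered from the FPKM steps of genes with 1 exon, at depths of 22400000 to 24400000 reads a library. The 95% counting intervals are exact (Clopper-Pearson for ratios, Poisson for levels), rest on those reads and cover counting error only. A fold is the ratio of FPKM, and counts of genes past 2-fold use log2(FPKM + 0.1), which understates the change of low genes. For comparison over all genes, 15057 genes averaging an FPKM of 1 or more were used. Their median change was 0.10 for H-si against H-scr and 0.15 for N-si against N-scr.

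TET1 itself was low in every library, at 0.1294 FPKM (scrambled) and 0.0493 (TET1-si) in normoxia, and 0.3313 and 0.1222 in hypoxia. These levels rest on about 28, 11, 76 and 26 reads in that order. TET1 was lower in the knockdown library of each oxygen state (log2 ratio -1.39, -2.60 to -0.39, in normoxia and -1.44, -2.13 to -0.76, in hypoxia). Its level in H-si was close to that in N-scr. The knockdown hairpin targets ccttgatagaatcactcagtt, 21 bases at chr10:70451833-70451853 on GRCh37, plus strand, in exon 12 of 12 of TET1 beyond its coding part. The sequence is shown because it allows a search for unintended matches. The full 21 bases stand in the transcripts of 0 of the 9 keratins. Shorter matches were not searched, so unintended effects of the hairpin were not tested. All 9 epithelial markers listed for the check (among them EPCAM, CDH1, TP63, KRT8 and KRT18) were at 1 FPKM or above in all 4 libraries. Their summed level went from 3.51e+03 to 1.74e+03 FPKM with knockdown in normoxia and from 3.62e+03 to 1.8e+03 FPKM in hypoxia, a sum that includes the keratins KRT8 and KRT18. CDH1 went instead from 179.3 to 266.9 FPKM with knockdown in normoxia and from 291.9 to 398.9 FPKM in hypoxia, and EPCAM from 154.5 to 205.9 and from 101.6 to 163.4 FPKM. Of the fibroblast markers 1 of 6 reached a mean of 1 FPKM, COL1A1, at 5.291 FPKM (scrambled) and 13.96 (TET1-si) in normoxia, and 28.58 and 36.99 in hypoxia, while COL1A2 and LUM were listed at 0. The summed level of the 6 fibroblast markers went from 5.3 to 14.1 FPKM with knockdown in normoxia and from 28.7 to 37.2 FPKM in hypoxia. Of the 5 leukocyte markers 2 reached 1 FPKM, CD14 and CD68, with CD3E listed at 0, and their summed level was 22.9, 29.8, 21.6 and 30.2 FPKM in that library order. For the endothelial list the sum was 8.91, 22.2, 17.8 and 48.4 FPKM, nearly all of it CDH5. The summed melanocyte markers were 2.73, 3.15, 7.88 and 8.52 FPKM with TYR and DCT listed at 0, and the neuroendocrine pair 0.666, 0.437, 1.11 and 1.24 FPKM. The part of these levels in the keratin results was not tested. In bulk RNA, fewer cells that express a gene and less RNA of it per cell cannot be told apart.

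Among the stratified keratins followed here, KRT5 and KRT17 made up most of the summed FPKM in both scrambled libraries. In N-scr the order of levels was KRT5, KRT17, KRT15, KRT13, KRT6A, KRT14, KRT4, KRT16 and KRT6B, and the counting intervals of neighbours in that order did not overlap. The knockdown libraries had another order. In N-si it ran KRT17, KRT5, KRT15, KRT16, KRT13, KRT4, KRT14 and KRT6A, with the intervals of KRT13 and KRT4, of KRT4 and KRT14 and of KRT14 and KRT6A overlapping. In H-si KRT16 again stood in the fourth place, and the intervals of KRT4 and KRT13 overlapped. The plot of levels shows each gene in each library.

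**Figure D1:**
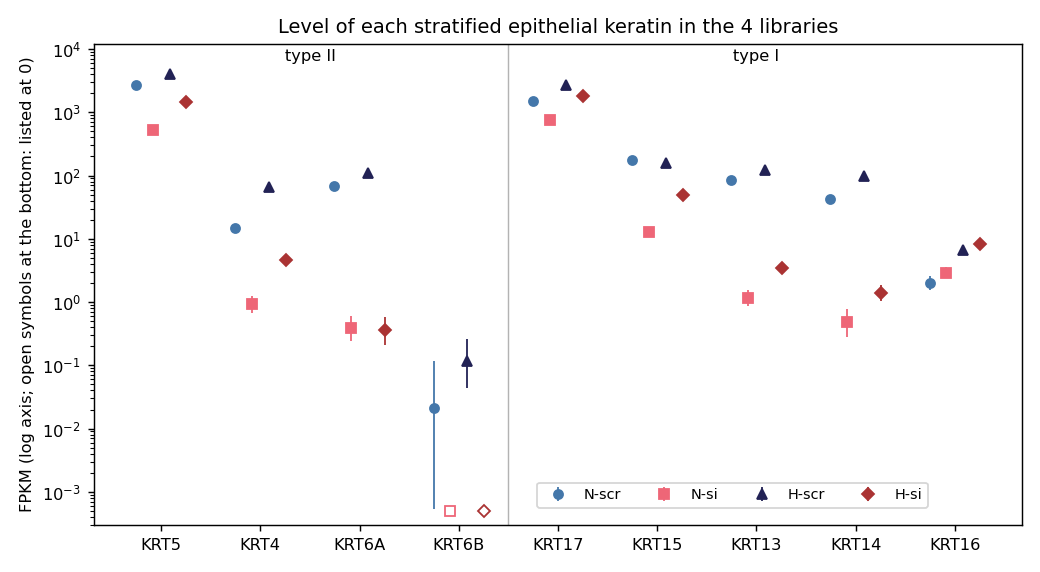
FPKM of the 9 keratins on a log axis, type II genes on the left and type I genes on the right, with 1 symbol for each library and exact 95% counting intervals (counting error only; 1 library a group). The 2 TET1-si libraries lie below both scrambled libraries for 7 of the 9 genes, the exceptions being KRT16 and KRT17. Open symbols at the bottom stand for KRT6B listed at 0.

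The basal type II keratin KRT5 (ENSG00000186081, chr12:52908359-52914471, hg19, minus strand, as for all 9 genes) was the most abundant member in both scrambled libraries. Normoxic levels were 2673 FPKM in scrambled and 523.8 in TET1-si cells, and hypoxic levels 3992 and 1430, resting on 25892 to 197367 reads. Both knockdown libraries were below both scrambled ones, and hypoxia was above normoxia on either side. With knockdown KRT5 was 5.1-fold lower between the normoxic libraries (log2 ratio -2.35, counting interval -2.37 to -2.33) and 2.79-fold lower between the hypoxic ones (-1.48, -1.49 to -1.47). With hypoxia KRT5 was 1.49-fold higher in scrambled and 2.73-fold higher in knockdown cells.

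Its basal partner KRT14 (ENSG00000186847, chr17:39738531-39743173) was far less abundant, with a larger ratio between scrambled and knockdown cells. Its level in scrambled cells was 42.11 FPKM in normoxia and 99.86 in hypoxia, and in TET1-si cells 0.4868 and 1.409, and the reads behind these were about 1367 and 3470 in scrambled and 17 and 45 in TET1-si cells. KRT14 was 86.5-fold lower with knockdown in normoxia (log2 ratio -6.43, -7.21 to -5.74) and 70.9-fold lower in hypoxia (-6.15, -6.60 to -5.72). The intervals of the 2 ratios overlap. With hypoxia it was 2.37-fold higher in scrambled cells (log2 ratio 1.25, 1.16 to 1.34) and 2.89-fold higher in TET1-si cells (1.53, 0.69 to 2.43).

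The basal type I keratin KRT15 (ENSG00000171346, chr17:39669995-39678781) stood at 173.9 FPKM in normoxia and 159.4 in hypoxia without knockdown, and at 12.98 and 49.63 with it. It was the only member with a lower level in H-scr than in N-scr, at a ratio of 0.917 (log2 ratio -0.13, -0.16 to -0.09). In TET1-si cells it was instead 3.82-fold higher in hypoxia (log2 ratio 1.93, 1.84 to 2.03). The loss with knockdown was accordingly 13.4-fold in normoxia and 3.21-fold in hypoxia. Its read numbers, about 14059 and 13792 without knockdown and 1123 and 3942 with it, were computed from a longest transcript of 3758 bases and are overstated if the canonical one of 1712 bases was counted, so its intervals would then be wider than given.

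The mucosal type II keratin KRT4 (ENSG00000170477, chr12:53200333-53208335) had the largest hypoxia ratio of the 9 genes in scrambled cells, KRT6B with its few reads left aside. Its level in scrambled cells was 14.99 FPKM in normoxia and 65.17 in hypoxia, and in TET1-si cells 0.9431 and 4.626, from about 659, 3068, 44 and 200 reads in that order. Hypoxia went with 4.35-fold more KRT4 in scrambled cells (log2 ratio 2.12, 2.0 to 2.24) and 4.9-fold more in TET1-si cells (2.29, 1.83 to 2.81), and these intervals overlap. The hypoxic knockdown library still lay below the normoxic scrambled one. Knockdown went with 15.9-fold less KRT4 in normoxia and 14.1-fold less in hypoxia.

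KRT13, the type I partner of KRT4 (ENSG00000171401, chr17:39657233-39661957), stood at 83.89 FPKM in normoxia and 120.6 in hypoxia without knockdown, and at 1.157 and 3.48 with it, from about 3104, 4777, 46 and 127 reads in that order. Its ratio between knockdown and scrambled cells was larger than that of its partner, at 72.5-fold lower in normoxia (log2 ratio -6.18, -6.63 to -5.76) and 34.7-fold lower in hypoxia (-5.12, -5.38 to -4.86). In scrambled cells hypoxia went with 1.44-fold more KRT13 and in TET1-si cells with 3.01-fold more. The antisense gene AC019349.5, which lies over its end, was listed at 17.95 FPKM (scrambled) and 0.1554 (TET1-si) in normoxia and at 23.59 and 1.017 in hypoxia, and so had the same order of libraries. Without strand their reads cannot be told apart.

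KRT6A, an inducible type II keratin (ENSG00000205420, chr12:52880958-52887041), had the largest loss of the 9 genes. Its level in scrambled cells was 67.71 FPKM in normoxia and 109.2 in hypoxia, and in TET1-si cells 0.3943 and 0.3569, from about 3236, 5586, 20 and 17 reads in that order. It was 172-fold lower with knockdown in normoxia (log2 ratio -7.42, -8.15 to -6.81) and 306-fold lower in hypoxia (-8.26, -9.02 to -7.56). Among the 11907 protein-coding genes averaging 1 FPKM or more, a larger decrease on the log2(FPKM + 0.1) scale was seen in 1 gene in normoxia and in 0 genes in hypoxia, although genes of other types went further down. In scrambled cells KRT6A was 1.61-fold higher in hypoxia (log2 ratio 0.69, 0.63 to 0.75). In TET1-si cells the ratio was 0.905 (log2 ratio -0.14, -1.13 to 0.90), so that no difference between the oxygen states was detectable at 20 and 17 reads.

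Its near copy KRT6B (ENSG00000185479, chr12:52840435-52845910) was listed in scrambled cells at 0.02104 FPKM (normoxia) and 0.1179 (hypoxia), about 1 read and 6 reads, and at 0 in both TET1-si libraries. No fold is given for it. The third copy, KRT6C, was listed at 0 in all 4 libraries. So of 3 genes with nearly the same sequence, the table placed nearly all reads on KRT6A, the copy shown in the first line of the 90-base window above.

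KRT16, the usual type I partner of KRT6 (ENSG00000186832, chr17:39766030-39772151), was the member that was not lower after knockdown. Normoxic levels were 2.017 FPKM in scrambled and 2.909 in TET1-si cells, and hypoxic levels 6.676 and 8.307, from about 67, 103, 236 and 269 reads. It was 1.44-fold higher with knockdown in normoxia (log2 ratio 0.53, 0.06 to 0.99) and 1.24-fold higher in hypoxia (0.32, 0.05 to 0.57), and both intervals come close to 0. After 3 other scalings of the columns its change stayed above 0, between 0.17 and 0.38 in hypoxia and between 0.34 and 0.56 in normoxia on the log2(FPKM + 0.1) scale. Hypoxia went with 3.31-fold more KRT16 in scrambled cells and 2.86-fold more in TET1-si cells, and both hypoxic libraries lay above both normoxic ones.

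KRT17, the inducible type I keratin that lies next to KRT16 (ENSG00000128422, chr17:39775689-39781094), was the second most abundant member in scrambled cells and the most abundant in TET1-si cells. Its level in scrambled cells was 1503 FPKM in normoxia and 2741 in hypoxia, and in TET1-si cells 764.3 and 1783, from 30250 to 108486 reads. Knockdown libraries were lower by 1.97-fold in normoxia (log2 ratio -0.98, -1.0 to -0.96) and by 1.54-fold in hypoxia (-0.62, -0.63 to -0.61), but H-si lay above N-scr. Under 2 of the 3 other scalings its change in normoxia passed 2-fold, at -1.14 and -1.15. Hypoxia went with 1.82-fold more KRT17 in scrambled cells and 2.33-fold more in TET1-si cells. In the annotation KRT17 overlaps JUP, which was 1.42-fold higher with knockdown in normoxia and 1.2-fold higher in hypoxia.

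Over the 9 genes, the median log2(FPKM + 0.1) change with knockdown was -1.68 in hypoxia (range -7.90 to 0.31) and -3.73 in normoxia (-7.10 to 0.51), or -1.78 and -3.88 relative to the median of all genes. The hypoxia median depends on the near-zero KRT6B, since it was -2.73 without that gene and -3.68 with a pseudocount of 0.01, where the normoxia median was -3.79 and -3.74. In hypoxia 7 of 9 were at least 2-fold lower and 0 higher, where 8.35% of all genes were lower and 20.4% changed that much either way. KRT6B is among the 7 with about 6 reads in H-scr and 0 in H-si, and without it 6 of 8 were lower. In normoxia 6 of 9 were at least 2-fold lower and 0 higher, where 5.56% of all genes were lower and 12.1% higher. Both TET1-si libraries lay below both scrambled libraries for 7 of 9 members, KRT6B at 0 against about 1 read among them, and for 15.6% of all genes. The genes were picked on these contrasts, so nothing is read from the counts. The 2 contrasts have no library in common, and the plot against all genes shows both.

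**Figure D2:**
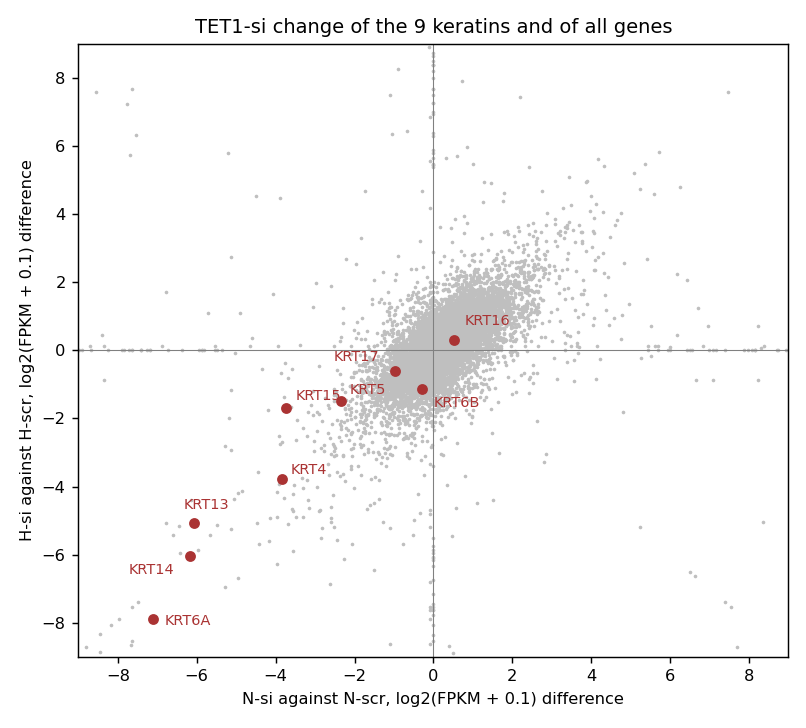
Change of each gene with TET1-si in normoxia (horizontal axis) and in hypoxia (vertical axis), both as log2(FPKM + 0.1) differences, for 15057 genes in grey and the 9 keratins in red. KRT6A, KRT14 and KRT13 lie at -5.08 or lower on both axes and KRT16 is the only member above 0; 120 genes fall outside the axes.

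Just inside the 2-fold limit in hypoxia stood KRT6B at -1.12 and KRT5 at -1.48, and just outside it KRT17 at -0.62 and KRT16 at 0.31. In normoxia KRT5 at -2.35 was the nearest inside, and KRT17 at -0.98 and KRT6B at -0.28 were the nearest outside.

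The hypoxia contrasts share all 4 libraries with the knockdown contrasts on which the genes were picked. They are not independent of that choice, so the counts below are a description. In scrambled cells the median change of the 9 keratins was 0.85 (range -0.13 to 2.11), against 0.05 for all genes, and 3 of 9 (KRT4, KRT16 and KRT14) were at least 2-fold higher and 0 lower. Of all genes 12.9% were higher and 4.53% lower. In TET1-si cells the median was 1.45 (range -0.11 to 2.18), against 0.03 for all genes, and 7 of 9 were at least 2-fold higher and 0 lower, where 12.5% of all genes were higher and 8.66% lower. The members not past 2-fold there were KRT6A, with its 20 and 17 reads, and KRT6B, listed at 0 in both libraries. The plot of changes gives each gene's ratio in the 4 contrasts.

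**Figure D3:**
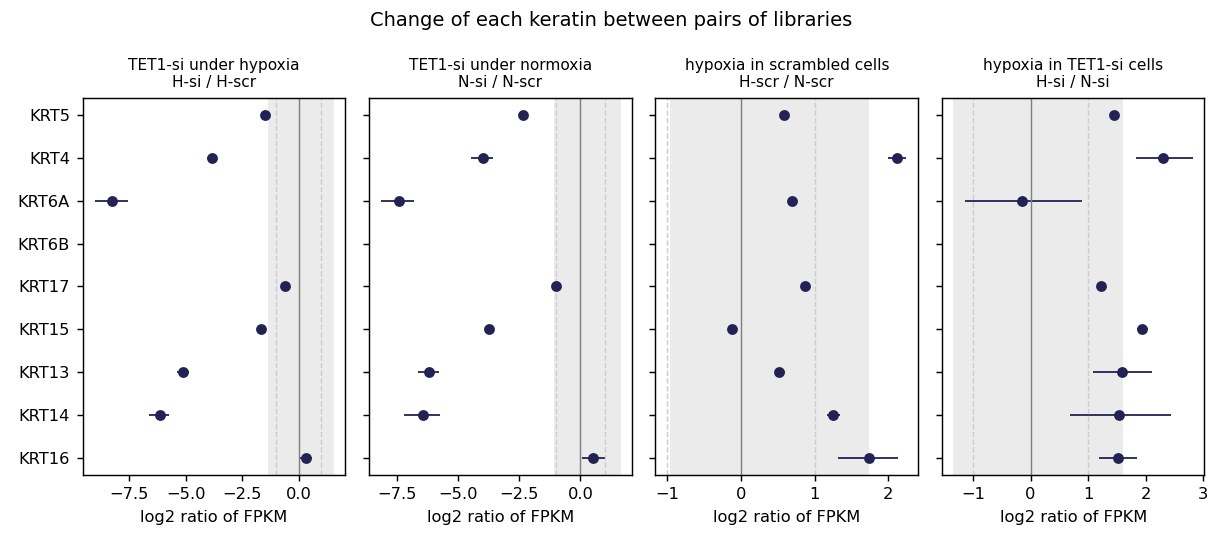
log2 ratio of FPKM between 2 libraries for each keratin, with exact 95% counting intervals, in the 4 contrasts named above the panels; each panel has its own horizontal scale. Grey bands span the 5th to the 95th percentile of the log2(FPKM + 0.1) change of all 15057 genes, and dashed lines mark 2-fold. KRT6B has no point because its libraries hold 6 reads or fewer.

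The hypoxia response with knockdown minus the one without, on the log2(FPKM + 0.1) scale, was 2.05 for KRT15, 0.99 for KRT13, 0.87 for KRT5 and 0.36 for KRT17. It was 0.12 for KRT14 and 0.07 for KRT4, -0.20 for KRT16 and -0.80 for KRT6A. These differences were not tested. Since the contrasts share libraries, the same values are the difference between the knockdown change in hypoxia and that in normoxia.

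The study selected genes by 3 inequalities: H-scr more than 2 times H-si, H-scr higher than N-scr, N-scr not below N-si. Of the 9 keratins 6 met all 3 (KRT4, KRT5, KRT6A, KRT6B, KRT13 and KRT14), where 3.84% of all genes did. KRT15 missed the one on hypoxia in scrambled cells, KRT17 was less than 2-fold lower in H-si than in H-scr, and KRT16 was higher in both knockdown libraries. KRT6B met them at 6 reads in the highest library. The first and the third inequality compare scrambled with TET1-si libraries, which is what the genes were picked on. Nothing is therefore read from the number that met them.

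The make-up of the keratin mixture differed between scrambled and knockdown cells. In scrambled cells the type II members summed to 2755 FPKM in normoxia and 4167 in hypoxia, and in TET1-si cells to 525.1 and 1435. Type I members summed to 1805 and 3128 FPKM, and with knockdown to 781.9 and 1846. The type I share of the members' FPKM was 39.6% (normoxia) and 42.9% (hypoxia) in scrambled cells but 59.8% and 56.3% in TET1-si cells. Leaving out KRT16 and KRT17 turned this round, with a type I share that went from 9.82% to 2.71% with knockdown in normoxia and from 8.35% to 3.66% in hypoxia, so the higher share with knockdown rests on KRT17, by far the more abundant of those 2 genes. KRT5 per KRT17 went from 1.78 to 0.685 in normoxia and from 1.46 to 0.802 in hypoxia.

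Within the classical pairs the genes did not change in proportion. KRT5 exceeded KRT14 63.5-fold (normoxia) and 40-fold (hypoxia) in scrambled cells, and about 1.08e+03-fold and 1.01e+03-fold in TET1-si cells, where KRT14 rests on 17 and 45 reads. For the mucosal pair, KRT13 per KRT4 was 5.6 (scrambled) and 1.23 (TET1-si) in normoxia, and 1.85 and 0.752 in hypoxia. Among the type I genes, KRT17 per KRT14 was 35.7 and 27.4 without knockdown and 1.57e+03 and 1.27e+03 with it. KRT5 and KRT17 together made up 91.6% and 92.3% of the members' FPKM in the 2 scrambled libraries (normoxia, then hypoxia) and 98.6% and 97.9% in the knockdown ones. The other 7 genes summed to 384.6 and 561.1 FPKM without knockdown, and to 18.87 and 67.81 FPKM with it.

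Compared with the rest of the keratin family, the 9 genes held 56.9% (scrambled) and 52.3% (TET1-si) of all keratin FPKM in normoxia, and 64.9% and 64.1% in hypoxia. All keratins summed to 8017 and 2499 FPKM in normoxia and to 1.123e+04 and 5119 FPKM in hypoxia. Of the 56 keratin genes 14 reached 5 FPKM in some library, 8 of them members, and 14 were listed at 0 in all 4 libraries. The simple keratins held most of the remainder, 42.2%, 44.2%, 34.5% and 34.4% of the pool in that order. The members' share of the FPKM of all genes went from 0.554% to 0.164% with knockdown in normoxia and from 0.962% to 0.453% in hypoxia, so they took less of the whole in the knockdown library of each oxygen state.

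**Figure D4:**
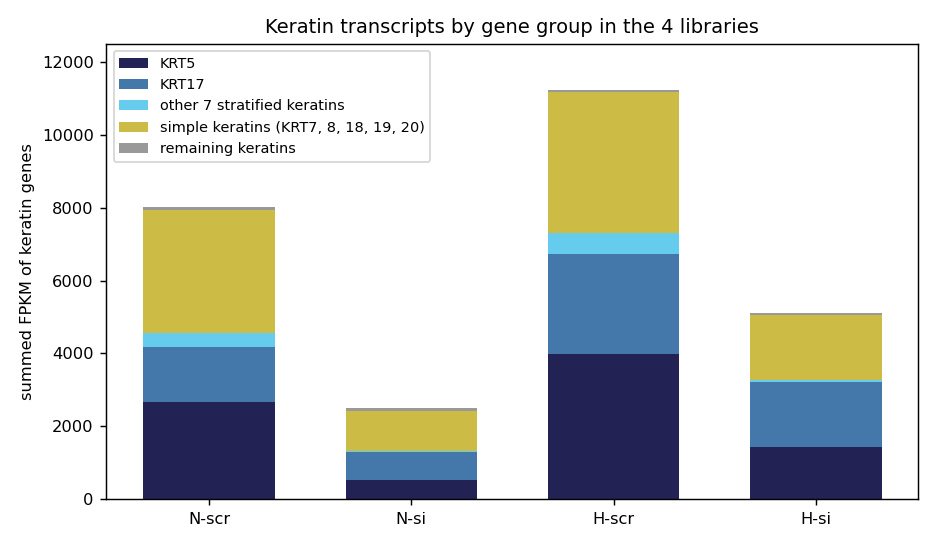
Summed FPKM of keratin genes in each library (bars start at 0), split into KRT5, KRT17, the other 7 stratified keratins, the simple keratins and all remaining keratins. The bars reach 8017, 2499, 1.123e+04 and 5119 FPKM from left to right, and the other 7 stratified keratins shrink from 384.6 to 18.87 FPKM in normoxia and from 561.1 to 67.81 FPKM in hypoxia.

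The pair of simple epithelia was also lower. KRT8 stood at 1739 FPKM (scrambled) and 481.3 (TET1-si) in normoxia and at 1903 and 453.2 in hypoxia, and KRT18 at 1109 and 304.2, and 970 and 227.3. KRT8 was 3.61-fold lower with knockdown in normoxia and 4.2-fold in hypoxia, and KRT18 3.65-fold and 4.27-fold. Between oxygen states in scrambled cells, KRT8 had a ratio of 1.09 and KRT18 of 0.875. Of the 5 simple keratins 4 reached a mean of 1 FPKM, with median changes of -1.57 in hypoxia and -1.31 in normoxia. Of those 4, 3 were at least 2-fold lower in hypoxia and 2 in normoxia, where 8.35% and 5.56% of all genes were. In the lists of 4 levels that follow, the order is scrambled and TET1-si in normoxia, then scrambled and TET1-si in hypoxia. KRT19, a type I keratin of simple and mucosal epithelia, went the other way in hypoxia, from 868 to 1014 FPKM with knockdown, but from 434.1 to 254.6 in normoxia. KRT7 was at 102.5, 65.6, 138.5 and 65.94 FPKM. KRT80 was higher with knockdown (57.21, 74.27, 41.02 and 64.53 FPKM), and KRT10, of differentiated skin, was nearly level (9.156, 9.178, 6.998 and 8.128 FPKM). They were the 2 of 15 other epidermal keratins that reached a mean of 1 FPKM, and 0 of them were past 2-fold. Of the 25 hair keratins 0 reached that mean.

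Genes that work with keratins were read from lists, with the background shares for all genes as above. Among 14 linkers that tie filaments to desmosomes or turn them over, 0 were at least 2-fold lower in either oxygen state and 2 were higher in hypoxia and 1 in normoxia, with medians of 0.24 and 0.06. The desmosomal plaque protein PKP2 stood at 26.45, 74.37, 28.88 and 90.88 FPKM. Of the 11 basal adhesion genes read, which anchor basal cells to the basement membrane or to each other, 3 were lower and 0 higher in each oxygen state, with medians of -0.63 in hypoxia and -0.77 in normoxia. Among them was COL17A1, a hemidesmosomal collagen (77.31, 26.1, 146.8 and 60.33 FPKM), which had the order of libraries seen for KRT5.

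Transcription factors of squamous and basal cells were read in the same way. Of 19 with a mean of at least 1 FPKM, 1 was at least 2-fold lower and 4 higher in hypoxia, and 2 lower and 5 higher in normoxia, with medians of 0.50 and 0.29. TP63, the master factor of stratified epithelium, stood at 50.72, 42.07, 54.78 and 53.37 FPKM. SOX2, a squamous lineage factor, was lower with knockdown (11.97, 1.352, 6.195 and 1.591 FPKM), and GRHL2, which maintains epithelial junctions, was higher (63.52, 147, 70.03 and 159.6 FPKM). EHF, an epithelial ETS factor, was also higher (9.978, 28.94, 14.69 and 29.96 FPKM). Of the 17 cornified envelope genes only 5 reached a mean of 1 FPKM. In hypoxia 3 of them were at least 2-fold lower and 1 higher, and in normoxia 1 lower and 3 higher. The medians were -1.45 in hypoxia and 1.27 in normoxia, so the list had no common direction. TGM1, the transglutaminase that cross-links the envelope, was the 1 gene of the 5 that was lower in both oxygen states. It stood at 7.886, 2.125, 39.6 and 13.5 FPKM.

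The 4 type II members lie in a run of 27 keratin genes on chromosome 12, and the 5 type I members in one of 29 on chromosome 17. The genes on either side of the runs changed by less than 2-fold. C12orf44 and EIF4B, beside the type II run, had changes of -0.73 and -0.48 with knockdown in hypoxia and -0.73 and -0.56 in normoxia. SMARCE1 and JUP, beside the type I run, had 0.29 and 0.27 in hypoxia and 0.47 and 0.50 in normoxia. Within 1 Mb of the type II run, 33 other genes with a mean of at least 1 FPKM had a median of -0.36 in hypoxia and -0.33 in normoxia. Around the type I run, 51 such genes had medians of -0.01 and 0.21. That distance was chosen after the values were seen. Within the type I run itself KRT14, KRT16 and KRT17 lie next to each other and had changes of -6.05, 0.31 and -0.62 in hypoxia, so these neighbours differed in the size and sign of their change.

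**Figure D5:**
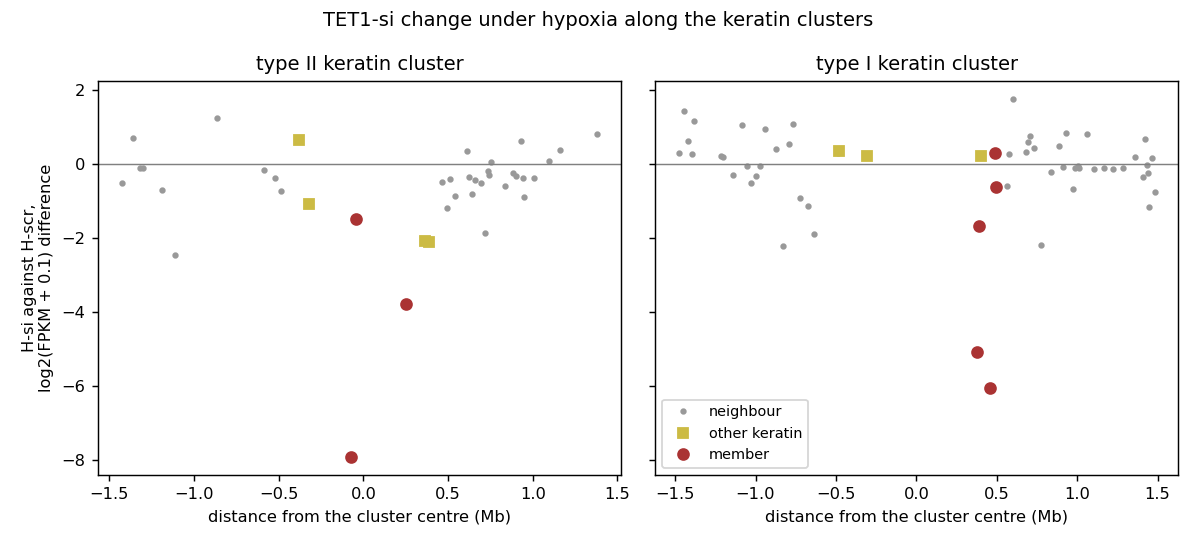
Change with TET1-si in hypoxia, as a log2(FPKM + 0.1) difference, against distance in Mb from the centre of the type II and of the type I keratin run, for 8 members (red circles; KRT6B is below the mean of 1 FPKM), other keratins (yellow squares) and other genes within 1 Mb (grey points). Members range from -7.90 to 0.31, and the medians of the other genes are -0.36 beside the type II run and -0.01 beside the type I run. Of these other genes 3 of 33 and 5 of 51 were at least 2-fold lower, and 1 and 5 higher. Of all genes 8.35% were lower and 20.4% changed that much either way.

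The genes outside the keratin family with the most similar pattern over the 4 libraries were found among 9452 protein-coding genes averaging 5 FPKM or more, by Euclidean distance to the mean centred log2(FPKM + 0.1) profile of the 7 members at that level. With 4 libraries the likeness is a description only. The nearest were TRO at a distance of 0.81, FGFBP1 at 0.91, GPNMB at 1.11, CXCL1 at 1.27 and CALB2 at 1.38. FGFBP1, a secreted carrier of fibroblast growth factors, stood at 63.45, 5.257, 258.3 and 9.691 FPKM. CXCL1, a chemokine that attracts neutrophils, stood at 27.4, 2.352, 54.19 and 1.738 FPKM. GPNMB, a transmembrane glycoprotein, stood at 158.5, 19.27, 378.3 and 49.05 FPKM. Among the members themselves KRT4 was nearest to the mean profile, at 1.10, and KRT16 farthest, at 4.51. Every member but KRT4 lay farther from it than these 5 genes, which were chosen as the nearest of all those compared. KRT16 and KRT6B were not part of that mean.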

How the data were processed

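RNA from 4 FaDu cell samples was made into mRNA libraries and sequenced by the authors. They deposited gene-level FPKM, 1 column a library, made with TopHat and Cufflinks on hg19; versions, filters and strand are not given in the sources used here, and the labels and methods differ on single or paired ends. Samples were grouped by their labels. The members and all gene lists were chosen with earlier results of these data known. Start positions in the table count from 0, and 1 was added. The 232 rows of gene IDs that stand on more than 1 row were left out of counts over all genes.

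Changes were log2(FPKM + 0.1), with 2-fold as the limit and a mean FPKM of at least 1 as the filter for all genes and for counts in the lists. No filter was put on the members. Depth was found from 5287 genes with 1 exon as the value that made low FPKM (under 6 reads) whole numbers of reads, which held for 93.8% to 95.5% of them within 0.05. Approximate reads are the product of FPKM, depth and transcript length (the longest in GENCODE v44lift37, less 212 bases). The search was tested on simulated data. Because FPKM are no counts, a count test was not used. With 1 library a group no test across genes was run.

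Genes named beside the members were TET1, KRT6C, other keratins with at least 5 FPKM in any library, the 5 nearest profiles, the nearest gene with a mean FPKM of at least 5 beside each run, and in each list up to 4 genes a direction with a mean FPKM of at least 5 and a change of at least 2-fold the same way in both oxygen states. A gene that this rule names is not reported here. TP63, the marker genes and AC019349.5 were named outside this rule after their values were seen. Alternatives were pseudocounts of 1 and 0.01, 3 other scalings, other filters, other transcript lengths and leaving out KRT6B. Python 3.11.15, pandas 2.3.3 and scipy 1.17.1 were used.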

Additional observations from a re-analysis of the deposited data

Results flagged for a closer look

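The change of KRT15 with hypoxia was slightly below 0 in scrambled cells and above 0 in TET1-si cells. It was -0.13 between the scrambled libraries and 1.93 between the TET1-si libraries on the log2(FPKM + 0.1) scale, a difference of 2.05. KRT6A was at 0.69 between the scrambled libraries and -0.11 between the TET1-si ones, a difference of -0.80. The second of these rests on 20 and 17 reads. The counting interval of its log2 ratio, -1.13 to 0.90, includes both 0 and 0.69, so no reversal is shown for KRT6A. With 1 library a group neither difference was tested.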

How the results depend on the processing

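No paired analysis was possible because each group holds 1 library, and for the same reason no replicate could be left out. No median over the 9 keratins changed sign under any alternative run. With TET1-si in normoxia the main median was -3.73, and the alternatives gave -3.91 to -3.04, the latter with a pseudocount of 1. With TET1-si in hypoxia they gave -3.68 (pseudocount of 0.01) to -1.62 (after rescaling to TPM). The main median for hypoxia without knockdown was 0.85, against 0.68 with a pseudocount of 1 and 0.98 after rescaling to TPM. For hypoxia with knockdown it was 1.45, and the alternatives gave 1.22 to 1.58. Without KRT6B, a choice made after seeing the data, the median with TET1-si in hypoxia went from -1.68 to -2.73. The number of members at least 2-fold lower was 6 or 7 in each oxygen state under every alternative, and 6 met the study's inequalities under each scaling. Without the filter on the mean, the count of all genes at least 2-fold lower in hypoxia with TET1-si went from 1258 to 3083 and that of higher genes from 1807 to 4226, and with a mean of at least 5 they were 789 and 881. In normoxia the counts went from 837 to 2299 and from 1828 to 3699, with 435 and 892 at the higher limit. For hypoxia in scrambled cells they went from 682 to 1654 and from 1937 to 4517, with 905 higher genes at the higher limit. For hypoxia in TET1-si cells they went from 1304 to 2333 and from 1883 to 4803, with 823 higher genes at the higher limit. Rescaling to TPM moved the median of all genes from 0.10 to 0.17 with TET1-si in hypoxia, from 0.15 to 0.20 in normoxia and from 0.05 and 0.03 to 0.16 in both hypoxia responses, and median-of-ratios scaling moved them to between -0.06 and -0.00. Reads by canonical transcript length were 0.42 to 1.00 times those used, and reads by the union of exons up to 1.94 times. Depth limits KRT6B in every library, and KRT6A and KRT14 in the TET1-si libraries. It also limits KRT4 and KRT13 in N-si, at about 44 and 46 reads.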

Other observations

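KRT75, a type II keratin of the hair follicle that lies beside the KRT6 genes, was named after its values were seen. It was at 1.711 FPKM in normoxia and 2.272 FPKM in hypoxia in scrambled cells, about 76 and 109 reads, and was listed at 0 in both TET1-si libraries. Of 97 keratin pseudogene rows 3 reached 1 FPKM in some library. KRT17P2 was at 1.239 FPKM (scrambled) and 0.6133 (TET1-si) in normoxia and at 2.419 and 2.155 in hypoxia, and KRT16P2 at 1.808 and 1.107 in normoxia and at 0.5926 and 1.864 in hypoxia. KRT8P12 was at 5.743 and 7.059 FPKM in normoxia and at 5.373 and 7.107 in hypoxia, while KRT8 itself was lower in both TET1-si libraries. Reads of a pseudogene and its parent may have been split by the counting, which was not tested.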
